A study of Mus musculus with 12 samples.

Results

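The genes described here are 40 autosomal chromatin regulators, chosen by name for their role, with earlier results of these data known. They comprise subunits of the Polycomb repressive complexes PRC1 and PRC2, the enzymes that add or remove methyl and acetyl groups on histones, and the remodelling enzymes of the SWI/SNF, CHD and NuRD families. All 40 symbols were found among the 55291 genes of the deposited table, and all 40 passed the filter on low values that left 16455 genes for testing.

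Transcripts were measured by RNA sequencing in 12 single, untreated wild-type C57BL/6J mouse embryos at embryonic day 7.0, 5 of them female and 7 male, from 7 litters. Each library was made from total RNA of 1 embryo with a kit for very small RNA amounts, and litters 3, 6 and 9 held both sexes. The series concerns whether fetal sex influences malformations caused by alcohol at gastrulation, and the comparison here is of female with male embryos before any exposure. The libraries held between 85350000 and 97530000 fragments in females and between 83000000 and 114400000 in males, estimated from the value of 1 fragment. Counts are given as normalized counts, that is, fragments per gene scaled to a common library size by the authors, and intervals of sampling were not computed because amplified fragments are not independent molecules. A level per kilobase is the normalized count divided by the total length of a gene's annotated exons, and levels of different genes are compared on that scale alone.

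The label of a gastrulating embryo was checked against marker genes. All 11 epiblast and all 12 primitive streak and mesoderm markers were detected, that is, above 0 in some or all embryos. Msgn1 was low, at 3.14 to 12.95 normalized counts in females and 9.02 to 151.7 in males. The summed epiblast markers held between 487100 and 558300 normalized counts in females and between 385300 and 584100 in males. The summed streak and mesoderm markers held between 94150 and 103300 in females and between 47550 and 101500 in males. Markers of tissues around the epiblast were present as well, with the 14 visceral endoderm markers summing to between 507100 and 696900 in females and between 288400 and 598000 in males. Maternal decidua markers summed to between 53370 and 72740 in females and between 65610 and 97060 in males. Gja1, a connexin gene with broad expression, held 47620 to 49960 of these in females and 50100 to 56190 in males, and Prl8a2 held 2397 to 19290 in females and 7424 to 41910 in males. Cryab held 468.3 to 2733 in females and 994.9 to 2857 in males, and Des held 1268 to 1972 in females and 1135 to 1753 in males. Dcn, Igfbp1, Hand2, Wnt4, Pgr, Acta2 and Tagln each held at most 521.3 in any embryo. With Gja1 in it, the sum is not a measure of decidual tissue by itself.

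Polycomb complexes keep developmental genes silent. PRC2 writes H3K27 methylation, and PRC1 binds that mark and ubiquitinates histone H2A. Other enzymes write marks of active genes (the Kmt2 and acetyltransferase families) or of silent ones (the H3K9 methyltransferases), and deacetylases and demethylases remove them. The SWI/SNF and CHD remodellers use ATP to move nucleosomes. Mouse embryos that lack PRC2 core subunits, Rnf2 or Setdb1 die around implantation or gastrulation.

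Many of these proteins have a close relative that can take the same place in a complex, and PRC1 is the clearest case. Its catalytic core pairs Rnf2 or Ring1 with 1 member of the Pcgf family, such as Bmi1 (canonical PRC1) or Pcgf6 (a variant complex). The promoters of these 4 genes are shown because their transcripts differed most within PRC1 and none of the bases lies in an annotated exon. Each run is the 250 bases before the RefSeq transcription start on GRCm38.p6, on the strand of the gene, with every CG in capitals. Rnf2 lies on the minus strand at chr1:151500992-151501241, Ring1 on the minus strand at chr17:34024681-34024930, Bmi1 on the plus strand at chr2:18676768-18677017 and Pcgf6 on the minus strand at chr19:47050907-47051156.
Rnf2: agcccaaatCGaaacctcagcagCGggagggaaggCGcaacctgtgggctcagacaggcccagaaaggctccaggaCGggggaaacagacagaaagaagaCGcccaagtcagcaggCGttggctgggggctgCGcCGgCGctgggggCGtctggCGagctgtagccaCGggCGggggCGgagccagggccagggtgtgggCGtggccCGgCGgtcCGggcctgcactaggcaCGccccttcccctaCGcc
Ring1: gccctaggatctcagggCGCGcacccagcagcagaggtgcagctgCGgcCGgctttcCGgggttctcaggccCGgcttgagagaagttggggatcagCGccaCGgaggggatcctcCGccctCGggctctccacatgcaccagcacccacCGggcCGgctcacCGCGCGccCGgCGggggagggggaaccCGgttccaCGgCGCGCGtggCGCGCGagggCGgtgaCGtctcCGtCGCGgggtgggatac
Bmi1: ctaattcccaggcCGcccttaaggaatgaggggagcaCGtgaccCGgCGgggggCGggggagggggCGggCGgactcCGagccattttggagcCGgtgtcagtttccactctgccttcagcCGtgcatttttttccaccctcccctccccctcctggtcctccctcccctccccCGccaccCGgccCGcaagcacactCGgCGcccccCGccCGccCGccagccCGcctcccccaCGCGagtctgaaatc
Pcgf6: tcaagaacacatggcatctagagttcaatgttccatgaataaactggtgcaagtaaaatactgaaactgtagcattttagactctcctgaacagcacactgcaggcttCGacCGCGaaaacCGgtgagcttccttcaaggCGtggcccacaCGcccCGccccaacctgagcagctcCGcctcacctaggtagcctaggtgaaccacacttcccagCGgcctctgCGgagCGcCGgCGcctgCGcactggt

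The 4 promoters hold 20 CG in Rnf2, 30 in Ring1, 21 in Bmi1 and 14 in Pcgf6. CG reads the same on both strands, and its occurrences cannot overlap. RefSeq promoters were matched for 33 of the 40 genes, with 41 entries because some have several starts. The median entry held 23 CG, against 6 over all 32851 mouse promoters in the RefSeq table, and 40 of the 41 entries held at least 1, against 92.1% of all promoters. The mean levels were 303 normalized counts per kilobase for Ring1, 358 for Bmi1, 4063 for Rnf2 and 1870 for Pcgf6. A relation of CG number to level was not tested.

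All 40 regulators were detected in every embryo, over a wide range of levels. Their median level was 961 normalized counts per kilobase, against 219 over the 16353 tested genes with an exon length, and 33 of the 40 lay above that figure. Mbd3, the methyl-binding-domain subunit of NuRD, was highest at 14157 ± 837 per kilobase (SD, n = 12), and Hdac1, a deacetylase shared by NuRD and other corepressors, followed at 11877 ± 765. Mbd3 had 28165, 28925, 27444, 32554 and 26648 normalized counts in the 5 females, and a lowest, median and highest value of 26959, 27117 and 29581 in the 7 males. Hdac1 had 42284, 42698, 40238, 43459 and 36997 in females, and 37248, 41054 and 45375 in males. Within each gene females and males overlapped. The order of the 2 genes rests on the gene length used, since by the longest transcript Hdac1 had 20077 and Mbd3 16926 per kilobase. Hdac2, the close relative of Hdac1, had 5824 ± 523 per kilobase, and Kat2a (Gcn5), an H3K9 acetyltransferase, had 4504 ± 230.

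At the other end, Kmt2a, an H3K4 methyltransferase, had 52.4 ± 11.4 normalized counts per kilobase (SD, n = 12), and Smarca2 (BRM), an ATPase of SWI/SNF, had 68.6 ± 17.0. Kmt2b, the H3K4 methyltransferase closest to Kmt2a, had 85.1 ± 13.6, and Kdm6b, an H3K27 demethylase, had 119 ± 20.5. Kmt2b had 591, 669.7, 931, 727 and 893 normalized counts in females, and 719, 842 and 1016 in males. Kdm6b had 952, 784, 849, 832 and 771 in females, and 559, 894 and 1014 in males. For both genes the sexes overlapped, and the males of Kdm6b spread to both sides of the females. Length and level per kilobase went in opposite directions among the 40 genes, with a Spearman rho of -0.613 across genes, which are not independent replicates. Length is also the divisor of the level per kilobase, so a negative rho is partly built in and is not read as a trait of long genes. Union exon length counts every annotated exon as transcribed, so it sets a long gene with many isoforms low. With the length of the longest transcript in its place, the median of the 40 was 1232 per kilobase. Smarca2 then had 165 per kilobase, above Kmt2d (137), Kdm6b (124), Kmt2b (96.4) and Kmt2a (53.1).

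**Figure D1:**
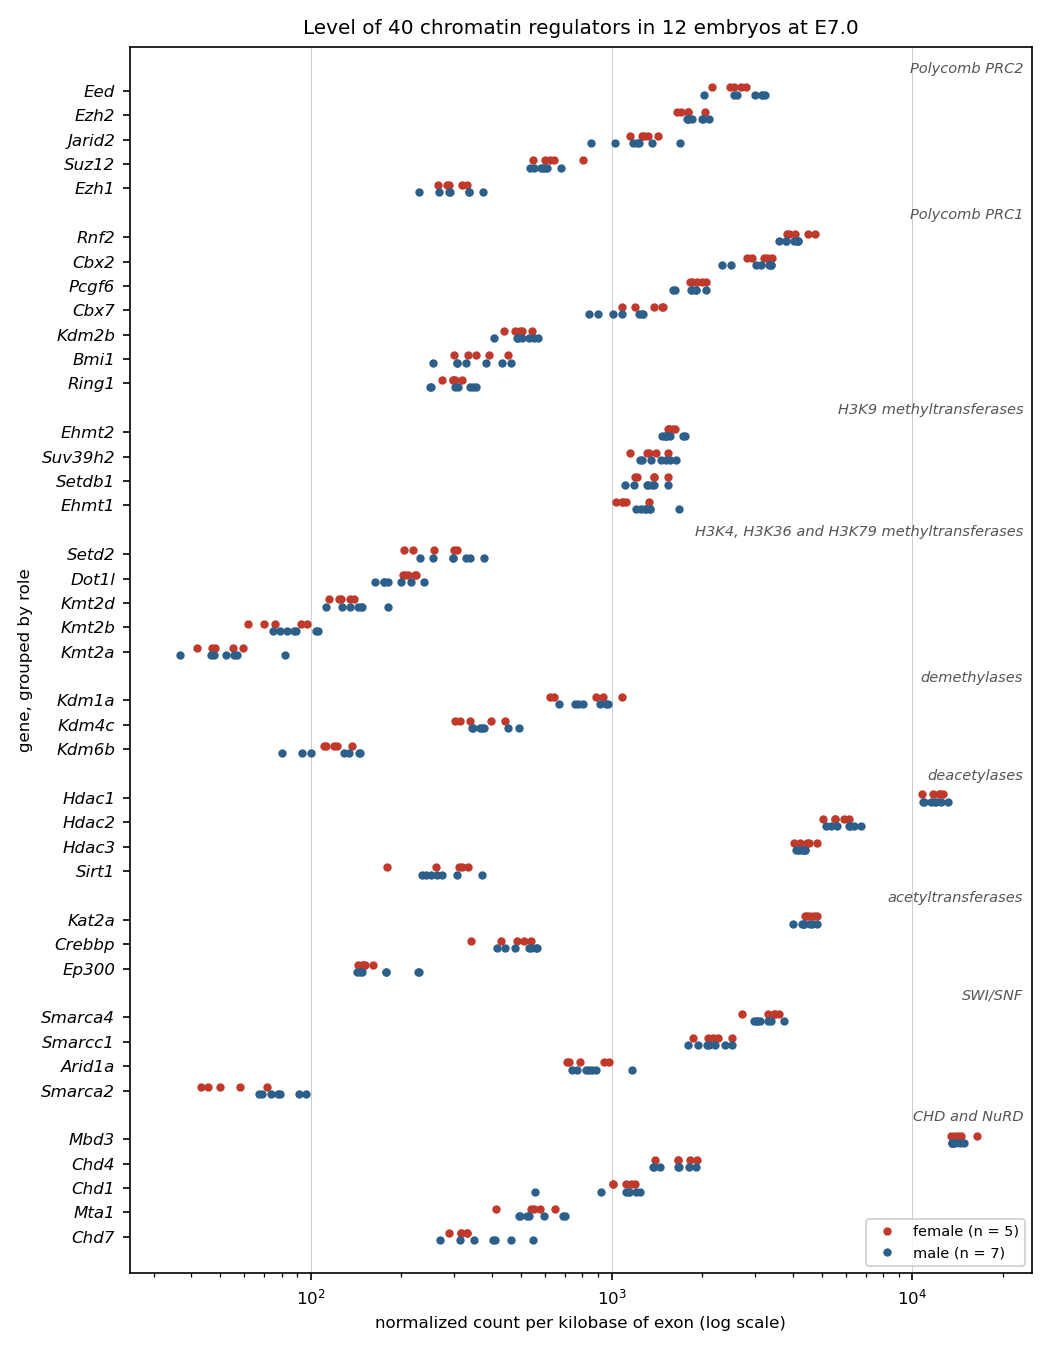
Level of each regulator in each embryo, in normalized counts per kilobase of exon on a log axis, with females (red) drawn just above males (blue) and genes grouped by role. Hdac1 lies at 10739 or above and Kmt2a at 82.2 or below in every embryo, and female and male points overlap for every gene.

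The median coefficient of variation of the 40 regulators over the 12 embryos was 13.4%, against 21.7% over all 16455 tested genes. Variation depends on level, and the 8759 tested genes at or above the mean of the lowest regulator (816.5 normalized counts) had a median of 12.2%. The steadiest were Hdac3 at 4.93%, Kat2a at 5.10% and Ehmt2 at 5.50%. The most variable were Smarca2 at 24.8%, Chd7 at 22.2% and Kmt2a at 21.8%.

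Hdac3, the deacetylase of the NCoR corepressor complex, had 18143, 19600, 17112, 16439 and 18405 normalized counts in the 5 females, and a lowest, median and highest value of 16623, 17532 and 17791 in the 7 males. Kat2a had 15339, 15926, 16744, 15561 and 16344 in females, and 13978, 15215 and 16799.6 in males. Ehmt2 (G9a), which mono- and dimethylates H3K9, had 8439, 8532, 8515, 8933 and 8769 in females, and 8057, 8346 and 9609 in males. In all 3 the female and male ranges overlapped. Kmt2a had 798, 699, 915, 995 and 783 in females, and 611, 872 and 1369.9 in males. Male 6 was far above every other embryo for Kmt2a, and male 1 was the lowest.

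Most paralog pairs kept 1 order. In 22 of 24 pairs the same gene was higher per kilobase in all 12 embryos, and the order of the pair means was the same under 3 definitions of gene length in 22 of 24. The median ratio over embryos went as high as 282-fold for Mbd3 over Mbd2 and 215-fold for Kat2a over Kat2b.

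In PRC2, Ezh2 and Ezh1 are the alternative H3K27 methyltransferases, Eed reads the methylated product, Suz12 is the scaffold and Jarid2 is an accessory subunit that aids recruitment. Ezh2 exceeded Ezh1 by a median of 6.29-fold per kilobase, with single embryos between 4.98-fold and 7.86-fold. The levels were 1860 ± 147 per kilobase for Ezh2 and 300.3 ± 39.9 for Ezh1 (SD, n = 12). Eed had 2701 ± 385 and Jarid2 1250 ± 207 per kilobase, while Suz12 was lower at 614 ± 72.5. Exons of Eed overlap those of E230029C05Rik on the opposite strand over 6.82% of their length, and the sources used here do not state that counting used strand.

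In PRC1, Rnf2 (Ring1b) was the main catalytic subunit by transcript level, at 4063 ± 318 per kilobase, against 303 ± 33.7 for Ring1 (SD, n = 12), a median ratio of 13.0-fold. Among the Pcgf partners, Bmi1 (358 ± 66.1) stood below Pcgf6 (1870.3 ± 147) in every embryo, and Pcgf6 was higher by a median of 5.18-fold. Among the chromobox subunits that bind methylated H3K27, Cbx2 (3062 ± 361) exceeded Cbx7 (1185 ± 209) by a median log2 ratio of 1.46. That order rests on exon length, since with coding length the mean log2 ratio was -0.27. Kdm2b, which brings a variant PRC1 to unmethylated CG islands, had 499 ± 46.7, a median of 1.47-fold above Kdm2a.

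The H3K9 methyltransferases were close to one another. Ehmt1 (GLP) and Ehmt2 act as a pair, Setdb1 trimethylates H3K9 with Trim28, and Suv39h2 acts at pericentric heterochromatin. Their levels lay between 1257 per kilobase for Ehmt1 and 1576 for Ehmt2. Ehmt1 was the lower of that pair in 11 of 12 embryos, with a median log2 ratio of -0.37, and coding length turned the mean ratio to 0.19. Suv39h2 (1398 ± 147) lay below its X-linked paralog Suv39h1 (1987 ± 174) in all 12 embryos, by a median of 1.44-fold. Suv39h2 exons overlap Dclre1c on the opposite strand over 8.1% of their length.

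Among the methyltransferases for other residues of H3, Kmt2b exceeded Kmt2a in all 12 embryos by a median of 1.71-fold, and Kmt2d, which marks enhancers, exceeded Kmt2c by 2.92-fold. Kmt2d had 136 ± 18.4 per kilobase. Setd2, which trimethylates H3K36 over transcribed genes, had 284 ± 51.9, and Dot1l, the H3K79 methyltransferase, had 201 ± 23.0.

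Of the demethylases, Kdm1a (LSD1), which acts on H3K4 in the CoREST complex, had 835 ± 146 per kilobase and exceeded Kdm1b by a median of 3.46-fold. Kdm4c, an H3K9 demethylase, exceeded Kdm4a in 11 of 12 embryos, by a median of 1.39-fold. Kdm6b lay below Kdm6a, its X-linked paralog, in all 12 embryos, and Kdm6a was higher by a median of 3.18-fold.

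Among deacetylases and acetyltransferases the largest ratio was that of Kat2a over Kat2b (23.3 ± 13.3 per kilobase). Hdac1 exceeded Hdac2 by a median log2 ratio of 1.00 and Hdac3 by 1.45. Sirt1, a deacetylase that uses NAD, had 278 ± 51.6. Ep300 and Crebbp are related coactivators that acetylate H3K27, and Ep300 (167 ± 31.1) lay below Crebbp (487 ± 68.3) in every embryo, with Crebbp higher by a median of 3.01-fold.

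The ATPases of SWI/SNF and the CHD family were one-sided as well. Smarca4 (BRG1), at 3267 ± 295 per kilobase, exceeded Smarca2 by a median of 44.0-fold, with embryos between 33.4-fold and 80.2-fold. The core subunit Smarcc1 (2161 ± 233) exceeded Smarcc2 by 9.17-fold, and Arid1a (852 ± 131), which defines the canonical complex, exceeded Arid1b by 7.02-fold. Chd4, the NuRD ATPase, had 1644 ± 203 per kilobase and exceeded Chd3 by 55.4-fold. Chd1 (1069 ± 186), which binds methylated H3K4 and has been tied to open chromatin in mouse embryonic stem cells, exceeded Chd2 by 27.5-fold. Chd7, the CHARGE syndrome gene in humans, had 361 ± 80.3 and exceeded Chd8 by 3.49-fold.

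Not every gene listed here was the major form of its family. In NuRD, Mta1 (563 ± 84.2 per kilobase) lay below Mta2 (7940 ± 465.8) in all 12 embryos, with Mta2 higher by a median of 14.5-fold. Mbd2, the alternative to Mbd3, was at 54.0 ± 13.8.

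The size of several ratios depended on gene length by more than 1.5 times, with the order of the pair kept. The mean log2 ratio of Smarca4 over Smarca2 was 5.61 with exon length, 4.37 with the longest transcript and 4.46 with coding length. For Suv39h2 over Suv39h1 it was -0.51 with exon length and -1.24 with the longest transcript. With the longest transcript, Bmi1 over Pcgf6 was -3.09 in place of -2.40 and Kdm1a over Kdm1b was 2.35 in place of 1.71. With coding length, Rnf2 over Ring1 was 4.37 in place of 3.75, Smarcc1 over Smarcc2 was 3.76 in place of 3.13 and Chd1 over Chd2 was 4.14 in place of 4.75. Kdm2b and Kdm2a were nearly level with coding length, at 0.04 in place of 0.62.

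**Figure D2:**
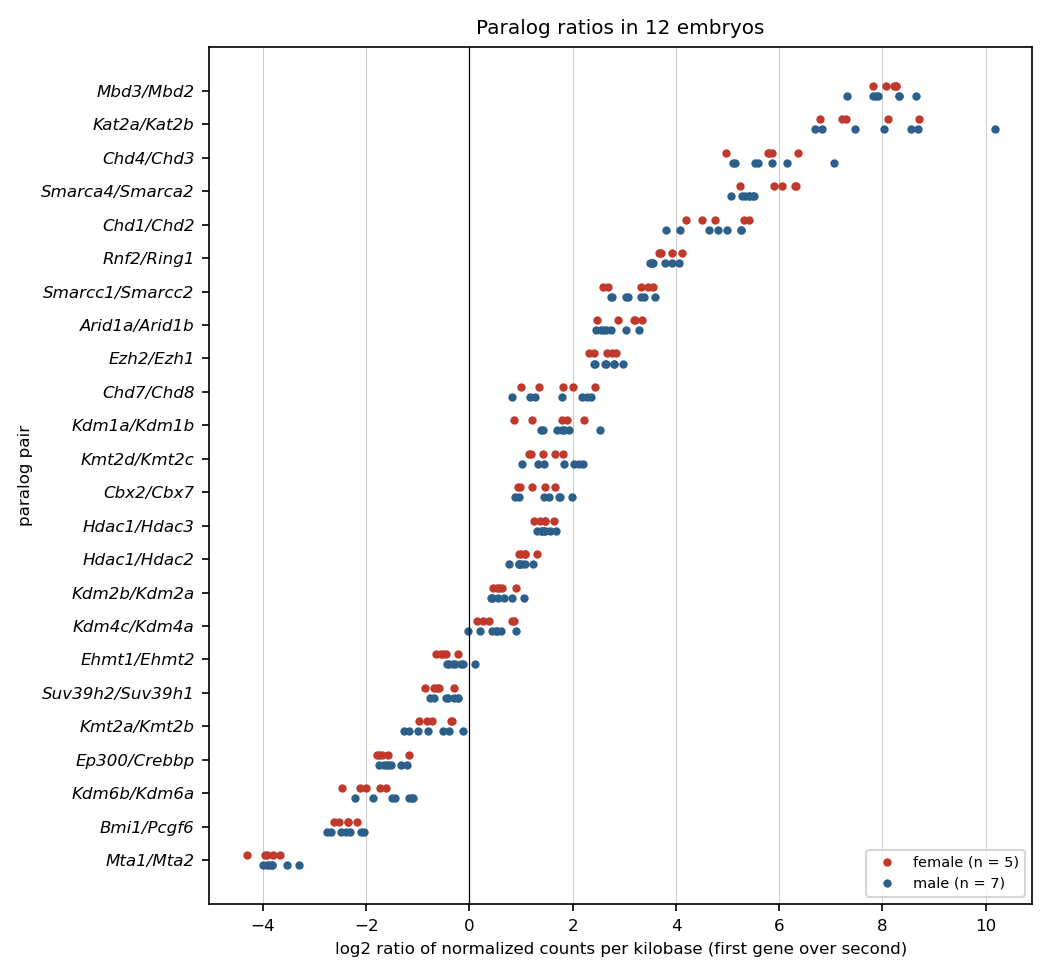
Log2 ratio of normalized counts per kilobase for each of 24 paralog pairs, 1 point per embryo, females in red and males in blue. The ratios run from a median of -3.86 for Mta1 over Mta2 to 8.14 for Mbd3 over Mbd2, and in 22 pairs every point lies on 1 side of 0.

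Female and male embryos were then compared gene by gene. No regulator passed an adjusted p of 0.05 for sex (limma on log2(normalized count + 1), Benjamini-Hochberg over all 16455 genes tested), a threshold that 7 genes, or 0.0425%, passed. The smallest adjusted p among the 40 was 0.23, for Smarca2. At an unadjusted p below 0.05, 3 regulators stood out, Smarca2 and Ehmt1 with lower means in females and Cbx7 with a higher one, against 10.8% of all tested genes (5.64% lower and 5.13% higher in females), so the share was near the background. In no regulator did the female and male embryos fail to overlap, against 0.772% of all genes (0.377% lower and 0.395% higher in females).

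The log2 fold change of female over male was positive in 18 regulators and negative in 22, with a median of -0.009, against a median of -0.0008 and 49.8% positive over all genes. The median size of the difference was 0.08 in the regulators, 0.15 over all genes and 0.09 over the 8759 genes at or above the mean of the lowest regulator. By role, positive and negative members numbered 2 and 3 in PRC2, 5 and 2 in PRC1, 1 and 3 among H3K9 methyltransferases, 1 and 4 among the other methyltransferases, 1 and 2 among demethylases, 2 and 2 among deacetylases, 1 and 2 among acetyltransferases, 2 and 2 in SWI/SNF, and 3 and 2 in CHD and NuRD. No role group held a gene past the threshold.

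Smarca2 (chr19:26605050-26778322, GRCm38) showed the largest contrast. It had 616, 1021, 648, 827 and 714 normalized counts in the 5 females, and a lowest, median and highest value of 958, 1105 and 1379 in the 7 males. Female 2 alone lay within the male range, and the other 4 females lay below every male. The means were 765 ± 164 (SD, n = 5) in females and 1130.3 ± 158 (SD, n = 7) in males. The log2 fold change was -0.57 (SE 0.15, unadjusted p = 0.00168, adjusted p = 0.23, limma). In the authors' deposited table, Smarca2 was the only 1 of the 40 with an adjusted p below 0.05, at 0.0235 with a log2 fold change of -0.33 (SE 0.196), where 1.14% of 18821 genes passed in either direction and 0.691% passed as lower in females. That fold change is small beside its error for such a p-value, and whether the deposited fold changes were shrunken is not stated in the sources used here. The log2 fold change in the authors' deposited table had the sign found here in 39 of the 40 genes.

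Smarca4, the other ATPase of the pair, had a log2 fold change of 0.04. The log2 ratio of Smarca4 over Smarca2 was 6.33, 5.25, 6.31, 5.91 and 6.05 in females, and its lowest and highest values in males were 5.06 and 5.50. It averaged 5.97 ± 0.44 in females and 5.36 ± 0.16 in males (SD, n = 5 and 7), a difference of 0.61 with an exact two-sided permutation p of 0.00884 and an adjusted p of 0.212 over the 24 pairs. Among the 792 splits of the embryos the smallest possible p is 0.00126. Ehmt1 over Ehmt2 had an exact permutation p of 0.0391 (difference -0.24, adjusted p 0.47), and no pair passed after adjustment.

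Ehmt1 (chr2:24789928-24919614) had 9069, 8871, 10836, 8413 and 8821 normalized counts in females, and 9779.8, 10567 and 13561 as lowest, median and highest in males. Female 3 was the only female inside the male range, and male 6 stood apart at the top. The means were 9202 ± 944 in females and 10916 ± 1232 in males, with a log2 fold change of -0.24 (SE 0.08, adjusted p = 0.32, limma). Cbx7 (chr15:79915807-79971119) had 8982, 7049.7, 9602, 7733 and 9562 in females, and 5436, 6999.6 and 8270.05 in males. The 3 highest embryos were female and the 4 lowest male, with overlap between. The means were 8586 ± 1143 in females and 7040.5 ± 1149.8 in males, and the log2 fold change was 0.29 (SE 0.12, adjusted p = 0.389, limma). With litter as a fixed block, where only the litters holding both sexes inform the estimate, it was 0.53 (adjusted p = 0.335, limma).

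Chd7 (chr4:8690406-8867659) had the next smallest p. Its values were 4346, 4555, 4362, 4558 and 3981 in females, and 3710.3, 5566 and 7542 as lowest, median and highest in males. The females lay close together at 4360.4 ± 235 (SD, n = 5), and the males spread widely around 5421 ± 1289 (SD, n = 7). The log2 fold change was -0.28 (SE 0.14, adjusted p = 0.497, limma). With litter as a fixed block, again from the litters of both sexes alone, it was -0.49 (adjusted p = 0.346, limma). Ep300 had the same shape, with 2142, 2051, 2292, 2118 and 2165 in females against 2025, 2532 and 3273 in males, and an adjusted p of 0.585 in limma.

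In the other genes of small p the sexes overlapped. Setd2 had 3215, 2196, 2359.6, 3300.2 and 2763.5 normalized counts in females, and 2476, 3204 and 4059.6 in males. Dot1l had 1940.05, 1758, 1939, 1825 and 1785 in females, and 1427, 1574 and 2073 in males, so 5 of the 7 males lay below all females and male 1 above them. Ezh2 had 11959, 11958, 11340.4, 13670 and 10994 in females, and 11915, 12326 and 14099.9 in males. Its 2 lowest embryos were female. Kmt2d had 2515, 2285, 2769, 2686 and 2468 in females, and 2237, 2857 and 3610.3 in males, and Rnf2 had 15781, 18535, 16849, 16043 and 19554 in females, and 14841, 16727 and 17256 in males. Adjusted p-values for these 5 genes lay between 0.556 for Setd2 and 0.682 for Rnf2 in limma.

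The remaining members, given as means and SD over 5 females and 7 males, had adjusted p-values in limma between 0.689 and 0.999. In PRC2, Eed averaged 9709 ± 930.0 normalized counts in females and 10790.1 ± 1682 in males, and Ezh1 averaged 2209 ± 199.8 in females and 2252 ± 367 in males. Suz12 averaged 3185 ± 475 in females and 2934 ± 233 in males, and Jarid2 averaged 12519 ± 985 in females and 11870.3 ± 2563 in males. The males of Jarid2 ran from 8286 to 16436, on both sides of all 5 females. In PRC1, Cbx2 averaged 13343 ± 1078 in females and 12814 ± 1851 in males, and Pcgf6 averaged 9700.1 ± 505 in females and 9189 ± 840.1 in males. Ring1 averaged 963 ± 52.1 in females and 996 ± 139.9 in males, Bmi1 averaged 1454 ± 236 in females and 1401 ± 297 in males, and Kdm2b averaged 5352 ± 415 in females and 5483 ± 591 in males. The means of these 5 PRC1 genes differed by less than the larger of the 2 SDs.

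Among the histone enzymes, Setdb1 averaged 9206 ± 951 in females and 9035 ± 956 in males, and Suv39h2 averaged 5951 ± 624 in females and 6318 ± 666 in males. Kdm4c averaged 2086 ± 346 in females and 2282 ± 331 in males. Kdm1a had nearly equal means, 4323 ± 1028 in females and 4325 ± 591 in males, with the widest relative spread among females. Crebbp averaged 6248 ± 1057 in females and 6836 ± 809 in males, and Sirt1 averaged 1493 ± 336 in females and 1476 ± 252 in males. Female 5 was the lowest embryo for both Crebbp (4631) and Sirt1 (952). Among the remodellers, Smarca4 averaged 21484 ± 2286 in females and 20917 ± 1741 in males, and Smarcc1 averaged 17084 ± 1860.2 in females and 16814 ± 1941 in males. Arid1a averaged 9503 ± 1445 in females and 9978 ± 1628 in males, and Chd1 averaged 9602 ± 742 in females and 9128 ± 2083 in males. In NuRD, Chd4 averaged 13561 ± 1613 in females and 12909 ± 1706 in males, and Mta1 averaged 1694 ± 264 in females and 1784 ± 273 in males. In each of these remodellers the sexes overlapped widely.

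**Figure D3:**
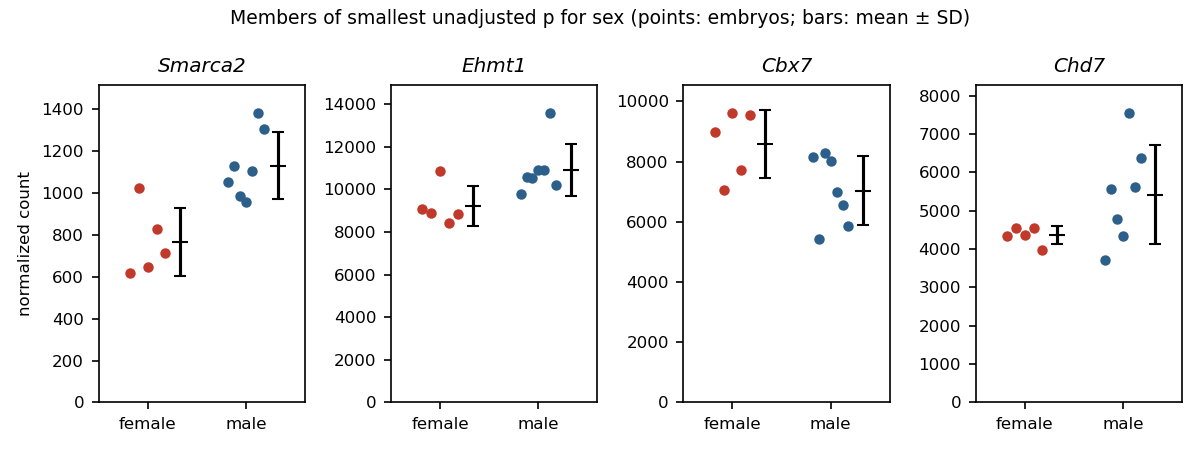
Normalized counts of Smarca2, Ehmt1, Cbx7 and Chd7 in each of 5 female and 7 male embryos, with the mean and SD of each sex as bars. Smarca2 averages 765 in females and 1130.3 in males, the sexes overlap in all 4 genes, and the 5 females lie closer together than the males for Chd7.

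Litter was the other labelled difference between embryos. No regulator passed an adjusted p of 0.05 in limma's F test of litter with sex in the model, and 0% of all genes did. At an unadjusted p below 0.05 there were 3 regulators, against 7.24% of all genes. These were Chd1, Smarcc1 and Eed, with adjusted p-values in limma of 0.43, 0.664 and 0.669. Chd1 had 4850.5 normalized counts in male 1, the only embryo of litter 2. The other 6 males held 8031 or more and the females 8815 or more. Only 4 residual degrees of freedom were left for this test.

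Whole embryos vary in how much of each tissue they bring, so each regulator was also set against the level of 9 lists of cell type markers, the level being the mean centred log2 value of a list. Of 360 relations, 2 passed an adjusted p of 0.05 in limma, both with visceral endoderm, the epithelium that surrounds the epiblast and feeds the embryo. The adjustment was over the genes tested against each list, and not across the 9 lists. Cbx7 increased with the visceral endoderm level, with a slope of 0.48 log2 units per unit (SE 0.10, adjusted p = 0.0161), a direction in which 1.97% of 16441 genes were called. Chd7 decreased with it, with a slope of -0.51 (SE 0.12, adjusted p = 0.0488), a direction in which 0.316% were called. All 14 visceral endoderm markers were detected and none was at 0. In whole embryos, fewer cells of a type and less RNA per cell cannot be told apart.

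The visceral endoderm level lay between 0.18 and 0.63 in females and between -0.81 and 0.34 in males, with males 2, 5 and 6 lowest. Over the 12 embryos Cbx7 had a Pearson r of 0.82 and a Spearman rho of 0.86 with it (permutation p = 0.00126 and 0.00082, adjusted over the 360 relations 0.284 and 0.148). Without the 2 embryos farthest from the median level r was 0.70, and among the 7 males r was 0.77. Chd7 had an r of -0.76 and a rho of -0.74 (permutation p = 0.00471 and 0.00754, adjusted 0.284 and 0.407), an r of -0.87 without the 2 farthest embryos and of -0.70 among males. The marker levels and the 2 genes come from the same libraries.

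Both calls were sensitive to the embryos used. The adjusted p of Cbx7 in limma was 0.0624 without female 3, 0.145 without male 2 and 0.17 with sex as a covariate. Chd7 kept its call only when male 7 was the embryo left out, and its adjusted p was between 0.0533 and 0.142 without any other single embryo. Without the 2 embryos of high parietal endoderm level (female 5 at 1.59 and male 4 at 1.48, the next highest being 0.408), the adjusted p was 0.0539 for Cbx7 and 0.12 for Chd7, with slopes of 0.45 and -0.47.

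**Figure D4:**
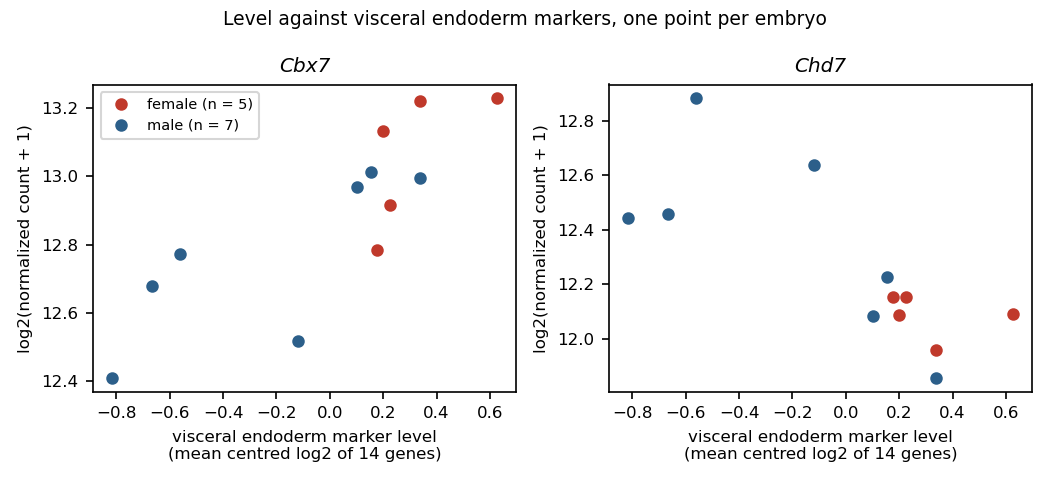
Log2(normalized count + 1) of Cbx7 and Chd7 against the visceral endoderm marker level, 1 point per embryo, females in red and males in blue. Cbx7 is higher and Chd7 lower in embryos of high marker level (Pearson r of 0.82 and -0.76), and the 3 embryos of lowest level are male.

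The 9 marker levels were also compared between the sexes by exact two-sided permutation, adjusted over the 9 lists. The visceral endoderm level averaged 0.31 ± 0.19 in females and -0.22 ± 0.45 in males (SD, n = 5 and 7, exact p = 0.0366, adjusted p = 0.11). The trophoblast level ran the other way, at -0.74 ± 0.90 in females and 0.53 ± 0.80 in males (exact p = 0.029, adjusted p = 0.11). Extraembryonic ectoderm markers, all 10 of them detected, lay at 0.07 to 0.78 in females against -0.57 to 0.02 in males, so that the sexes did not overlap (exact p = 0.00126, adjusted p = 0.0114). The other 6 lists had exact p-values between 0.369 and 0.936. Among the extraembryonic ectoderm markers Wnt7b alone did not overlap, with 153 to 957 normalized counts in females and 28.0 to 147 in males, and Esrrb held 13.9 to 184 in females and 0 to 18.7 in males. Cdx2, Elf5, Tfap2c, Sox2 and Pcsk6 had their highest value in a male. The summed counts of all 10 markers ran from 26660 to 31480 in females and from 13900 to 29410 in males. Eomes, which is also in the streak and mesoderm list, held 20560 to 25910 of these in females and 5550 to 25620 in males. With the extraembryonic ectoderm level in the model, the log2 fold change for sex was -0.36 for Smarca2 and -0.05 for Cbx7. Because that level did not overlap between the sexes, the fit cannot separate it well from sex. With the visceral endoderm level in the model it was -0.41 for Smarca2, 0.05 for Cbx7 and -0.02 for Chd7. Smarca2 had an r of -0.77 with the extraembryonic ectoderm level over all embryos and of -0.17 among males. With the visceral endoderm level its r was -0.71 and its rho -0.78, and r was -0.57 among males. The part these tissues play in the sex differences was not tested.

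No regulator was called against the other 8 lists, which were epiblast, primitive streak and mesoderm, extraembryonic ectoderm, trophoblast giant cells and ectoplacental cone, parietal endoderm, maternal decidua, adult blood and leukocytes. Of all tested genes, 0.116% had a positive and 0.073% a negative called slope on the epiblast level, and 0.109% and 0.00608% on the parietal endoderm level. On the trophoblast level 0.651% were positive and 0.0426% negative, and on the other 5 lists the share was 0%. Of the 12 trophoblast markers, 2 (Prl3b1 and Ctsq) were at 0 in every embryo.

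Covariation from embryo to embryo was examined next. Over all 780 pairs of the 40 genes the median Pearson r was 0.14, 64.2% were positive, and the extremes were 0.84 for Jarid2 with Pcgf6 and -0.88 for Ring1 with Ehmt2. All genes share the scaling of each library. Of 24 pairs named for a shared complex or family, 6 (25%) had a permutation p below 0.05 and none passed after adjustment over the 24. All 6 had a positive r, the smallest being 0.596, and 59 of the 780 pairs (7.56%) had an r at or above that smallest value. These 59 include the 6, and negative values of r were not counted.

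Among the named pairs, a NuRD pair was the closest. Chd4 and Mta1 had an r of 0.74 and a rho of 0.74 (permutation p = 0.00494 and 0.0073, adjusted 0.119 and 0.128), and an r of 0.77 without the 2 embryos farthest from the median of Chd4. With each sex centred on its own mean r was 0.81, with an adjusted permutation p of 0.0422. That permutation ran freely over all embryos and made no allowance for the sex means removed. Its p is therefore somewhat too small, and the pair is not counted as passing. Outside the named pairs, Mta1 had a similar r with Kdm1a (0.74), Sirt1 (0.73) and Crebbp (0.72), so the value was not particular to NuRD partners. Chd4 with Hdac1 had an r of 0.63, and Kdm1a with Hdac1 had 0.62. Hdac1 with Mta1 gave 0.48, and 0.06 without the 2 embryos farthest from the median of Hdac1. Chd4 with Mbd3 gave 0.24, and -0.49 among males.

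In SWI/SNF, Smarca4 had an r of 0.60 with Smarcc1 and 0.62 with Arid1a, and the second was 0.29 without the 2 embryos farthest from the median of Smarca4. Ep300 and Crebbp had an r of 0.60. Beyond Chd4 with Mta1, the adjusted permutation p was 0.164 for each of the 5 pairs with an unadjusted permutation p below 0.05. In the PRC2 core no pair had a permutation p below 0.05, with an r of 0.43 for Ezh2 with Eed, -0.06 for Ezh2 with Suz12 and -0.30 for Eed with Suz12. The last turned to 0.22 without the 2 embryos farthest from the median of Eed and to 0.13 among males. Cbx2 with Cbx7 gave -0.41, and -0.64 with each sex centred on its own mean (adjusted permutation p = 0.152).

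**Figure D5:**
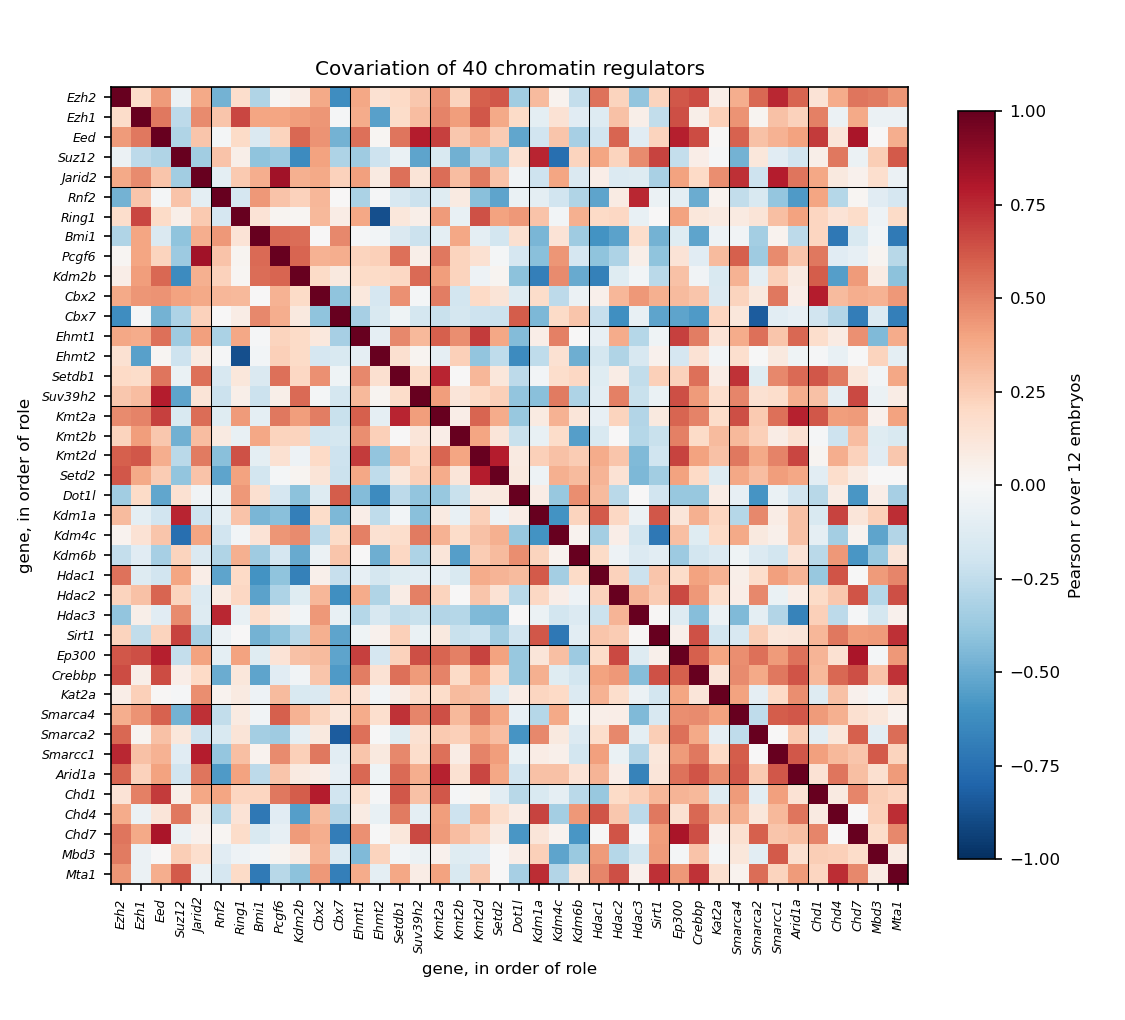
Pearson r of log2 levels over the 12 embryos for each pair of the 40 regulators, in order of role with lines between role groups, from -1 (blue) to 1 (red). Blocks along the diagonal are not uniformly red, and the strongest negative value, -0.88, is between Ring1 and Ehmt2.

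Partners and relatives of the regulators were examined for sex in the same test. Of 211 related genes in 15 lists, 209 were tested and none passed the adjusted threshold in either direction. At an unadjusted p below 0.05 there were 22 (10.5%, of which 12 higher and 10 lower in females), against the background of 10.8% given above. The median log2 fold change was -0.02.

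By list, genes with positive log2 fold changes were set against those with negative ones. PRC2 partners divided into 4 positive and 4 negative, PRC1 partners into 13 and 7, and the Polycomb deubiquitinases into 3 and 2. H3K9 methylation and HP1 genes divided into 4 and 9, H3K4 methylation genes into 3 and 12, H3K36 and H4K20 methylation genes into 4 and 7, and arginine methylation genes into 6 and 0. Other demethylases gave 9 and 9, other deacetylases and corepressors 9 and 15, other acetyltransferases 6 and 7, and bromodomain readers 2 and 4. SWI/SNF subunits gave 10 and 13, the ISWI, INO80 and SRCAP genes 5 and 15, CHD and NuRD subunits 4 and 10, and the regulators and targets of PRC2 6 and 7.

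The 2 most abundant genes of each list were examined singly, and none passed the threshold. Prmt5, the main symmetric arginine methyltransferase, averaged 39330 ± 1537 in females and 34360 ± 2582 in males (SD, n = 5 and 7, log2 fold change 0.20, adjusted p = 0.25, limma). Its partner Wdr77 averaged 54560 ± 3355 in females and 50810 ± 1155 in males (adjusted p = 0.387, limma). Jmjd6, a hydroxylase of lysine in splicing factors, averaged 14430 ± 658 in females and 12390 ± 898 in males (log2 fold change 0.22, adjusted p = 0.231, limma). Hat1, a histone acetyltransferase of new histone H4, went the other way, at 28450 ± 1673 in females and 31390 ± 1986 in males (log2 fold change -0.14, adjusted p = 0.366, limma). Kat7, an H3 and H4 acetyltransferase, averaged 15960 ± 592 in females and 14690 ± 688 in males (adjusted p = 0.378, limma). Mta2 averaged 33830 ± 495 in females and 31550 ± 1994 in males (adjusted p = 0.443, limma). Gata4, an endoderm transcription factor in the list of Polycomb regulators and targets, averaged 15610 ± 2732 in females and 11800 ± 3943 in males (adjusted p = 0.429, limma). These 7 genes were those with an unadjusted p below 0.05 in limma among the 30 examined, and 10.8% of all tested genes had such a p. The 30 were taken for their high mean level, and the share among genes of like level was not computed. The histone chaperones Rbbp7 and Rbbp4, shared by PRC2 and NuRD, averaged 105300 ± 4477 and 89100 ± 2990 in females, and 106800 ± 7364 and 92900 ± 3932 in males. Trim28, the corepressor that brings in Setdb1, averaged 39000 ± 5961 in females and 39020 ± 4660 in males. Ruvbl1, an ATPase of INO80, had nearly the same mean in both sexes, with a log2 fold change of 0.0006.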

How the data were processed

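Per the submitters' processing notes, the tools were DESeq2 1.34.0, Salmon 1.5.2, STAR 2.7.7a and cutadapt 4.1, with the mm10 build, and their settings are not stated. Values per embryo, as deposited by the authors, are log2-scale and variance-stabilized. The authors also deposited a mean signal per gene and, for females over males, a log2 fold change with its error, p-value and adjusted p-value. Inverting the transformation (floor 10.4141) gave normalized counts, and for 25183 of 25451 genes their mean matched the deposited one to 1e-06 of its size. Between 79.21% and 81.93% of low values per library were whole fragments within 0.1, so no count model was used.

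Genes with at least 10 normalized counts in at least 5 embryos were fitted on log2(normalized count + 1), which understates changes of low genes, by limma 3.58.1 (R 4.3.3) using a mean-variance trend. Sex was the only term, all 12 embryos entered, and two-sided p-values received Benjamini-Hochberg adjustment with 0.05 as threshold. The script was tested on simulated data. Paralog ratios were tested over every 1 of 792 splits into 5 and 7 embryos, and correlations used 100000 permutations. Lengths and coordinates are from GENCODE M21 (GRCm38, the assembly of mm10), and promoters from RefSeq on GRCm38.p6. Each library is 1 embryo, so p-values measure the spread between embryos.

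The 40 genes, the related lists, the pairs and the marker lists were chosen with earlier results of these data known. Genes were named as members past a threshold, up to 10 of smallest p for sex, the 4 highest and lowest per kilobase, the 3 most and least variable, and the members of each pair. In each related list, up to 2 of highest mean were eligible. Alternatives were other pseudocounts, filters, scalings, gene lengths and blocks, each embryo left out, and covariates added after the data were seen. The replicate numbers of the titles were not treated as pairs, because same-numbered embryos share no litter.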

Additional observations from a re-analysis of the deposited data

Results flagged for a closer look

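In 3 of 128 groups of values, 1 embryo stood apart from the others of its sex by more than Dixon's 95% critical value, where chance gives about 1 in 20. Ehmt1 had 10840 normalized counts in female 3, against 8413 to 9069 in the other 4 females. Ehmt1 had 13560 in male 6, against 9780 to 10920 in the other 6 males. Arid1a had 13420 in male 6, against 8484 to 10170 in the other 6 males.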

How the results depend on the processing

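No regulator passed the adjusted threshold for sex or for litter under any alternative run. Regulators at an unadjusted p below 0.05 for sex numbered 3, and 2 to 6 with 1 embryo left out. Over all genes, calls for sex numbered 7, and 4 with litter as a fixed block, 4 with the replicate block, 4 with the extraembryonic ectoderm level as a covariate, and 5 to 9 with 1 embryo left out. Same-numbered embryos deviated with correlations between -0.0681 and 0.0092, and 0 of 5 females correlated best with their own number. The replicate block gave 0 calls among the regulators. Calls for litter over all genes numbered 0, and 2 at a pseudocount of 0.1, 1092 with no filter and 2 with a filter of 100. Regulators called against a marker level numbered 2, and 1 at a pseudocount of 0.1, 1 with no filter, 0 with sex as a covariate, 0 without the 2 embryos of high parietal endoderm level, and 0 to 2 with 1 embryo left out. Over all genes the visceral endoderm slope gave 376 calls, and 175 with sex as a covariate, 192 without male 2 and 192 to 429 with 1 embryo left out. With the extraembryonic ectoderm level as a covariate, which did not overlap between the sexes, the log2 fold change for sex turned in Cbx7 (-0.0474) and Dot1l (-0.0328). With the visceral endoderm level it turned in Ep300 (0.0221) and Ezh2 (0.0198). With coding length the mean log2 ratio turned to -0.27 for Cbx2 over Cbx7 and 0.19 for Ehmt1 over Ehmt2. With levels centred by sex 1 pair passed for covariation, against 0, in a permutation that made no allowance for the sex means removed. The median level per kilobase was 1232 with the longest transcript, against 961. The cause was not tested for these changes. With litter as a fixed block the log2 fold change was -0.86 for Smarca2, against -0.57, 0.53 for Cbx7, against 0.29, and -0.49 for Chd7, against -0.28. That fit takes its sex difference only from litters 3, 6 and 9, which held both sexes. Embryos alone in their litter, female 2 among them, do not inform it, so the 2 estimates rest on different embryos. Paralog ratios were blocked by replicate number over 5 pairs, where the smallest exact p is 0.0625.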
